A study of Mus musculus with 199 samples.

Results

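The genes of the complement and coagulation systems were examined in mice with liver cancer that had arisen in steatohepatitis. They were 38 of the 37713 genes in the count table, found by matching Ensembl identifiers to a list of symbols, and comprised 22 complement and 16 coagulation genes. All 38 had enough counts to be tested in liver and tumour tissue. Their levels there are given first, and the complement genes *C3*, *C4b* and *Cfp* are then followed in sorted neutrophils.

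All mice were male wild-type C57BL/6 animals of an in-house colony, and their age was not given in the sources used here. DEN ALIOS in the labels stands for a model that joins a chemical liver carcinogen, diethylnitrosamine, with an obesogenic Western-type diet. The tissue groups were 15 liver tissue, 25 small tumour and 25 large tumour libraries of stranded mRNA. Liver tissue carries DEN ALIOS in its titles and Normal as its treatment, so the tissue controls are non-tumour liver of the same model as far as the titles tell. No animal is named for tissue libraries, so p-values there measure the spread between these samples, and tissue pieces of the same mouse may be among them. Neutrophils were sorted by the surface protein Ly6G, at a purity of at least 97% per the labels, and sequenced from low-input total RNA. Their second source is liver in the titles and tumours in the protocol, and it is called liver below. The DEN ALIOS mice fell into 4 treatment groups, which were untreated mice, mice given an antibody against PD-1, a checkpoint receptor of T cells (aPD1), mice given a blocker of CXCR2, a chemokine receptor of neutrophils (CXCR2i), and mice given both agents (combination). These groups held 6, 5, 10 and 8 liver libraries and 7, 5, 10 and 10 blood libraries. The untreated group includes 1 liver and 2 blood libraries labelled Vehicle, and the CXCR2i group 4 of each labelled as also given an aPD1 isotype antibody.

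Tissue libraries held 12055434 to 21850190 gene counts and neutrophil libraries 580113 to 9256224. The sequencing runs come from identifiers in the labels and are called T1 to T3 for tissue and run sets A to D for neutrophils. Levels are CPM (gene counts scaled to 1000000) after scaling by trimmed mean of M values (TMM) factors, within tissue and within neutrophils separately, and tissue and sorted cells were never tested against each other. Differences between groups are given as log2 fold changes with their standard errors, from edgeR's quasi-likelihood test with the sequencing run, or the animal, as a term, so they can differ from ratios of mean levels. A gene rose or fell when its p, adjusted by the Benjamini-Hochberg method over all genes tested, was under 0.05. Hepatocyte markers were abundant in all 3 kinds of tissue, with albumin (*Alb*) at a median of 53130 CPM in liver tissue, 164000 in small tumours and 150300 in large tumours. *Alb* does not stand for the others, as 6 of 11 such markers were higher and 5 lower in tumours of either size. In bulk tissue, fewer cells of a type and less RNA per cell cannot be told apart.

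Complement is a cascade of plasma proteins that tags and lyses microbes and damaged cells. The classical, lectin and alternative pathways each cleave C3, and the terminal proteins then assemble a pore in the target membrane. Coagulation is a parallel cascade of proteases in which thrombin turns fibrinogen into fibrin, checked by inhibitors and by plasmin, which dissolves the clot. Hepatocytes make most of these plasma proteins, and several of them are acute phase proteins that the liver secretes in larger amounts during inflammation.

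Complement genes were mostly lower in tumours than in liver tissue, while the coagulation genes split. Of the 22 complement genes, 5 rose and 15 fell in large tumours. Among the 16 coagulation genes 6 rose and 7 fell. For all 38 this made 11 that rose and 22 that fell, where 38.5% of the 14538 tested genes rose and 32.1% fell. The median fold change was -0.36 over the 38 genes and 0.05 over all genes tested. In small tumours 12 rose and 21 fell, beside 34.7% and 31.0% of all genes, with a median of -0.29 against 0.03. Both comparisons use the same 15 liver tissue libraries. A gene that rose or fell in large tumours had the same call in small tumours, except *C8a*, which fell in large tumours, and *F2*, which rose in small ones. *C3*, *C1s1*, *F12* and *Plg* passed in neither comparison, although *C3* in both sizes and *C1s1* and *F12* in small tumours passed under at least 1 alternative, as did *C8a* in small tumours. On GRCm38, the genes on which the following turns most lie on several chromosomes, *C3* at chr17:57203970-57228136, *C4b* at chr17:34728380-34743882, *Mbl1* at chr14:41151458-41159601, *Cfd* at chr10:79890853-79892655, *Cfp* at chrX:20925454-20931555, *C6* at chr15:4727175-4814967, *F11* at chr8:45241174-45262031 and *Kng1* at chr16:23057865-23082078.

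**Figure D1:**
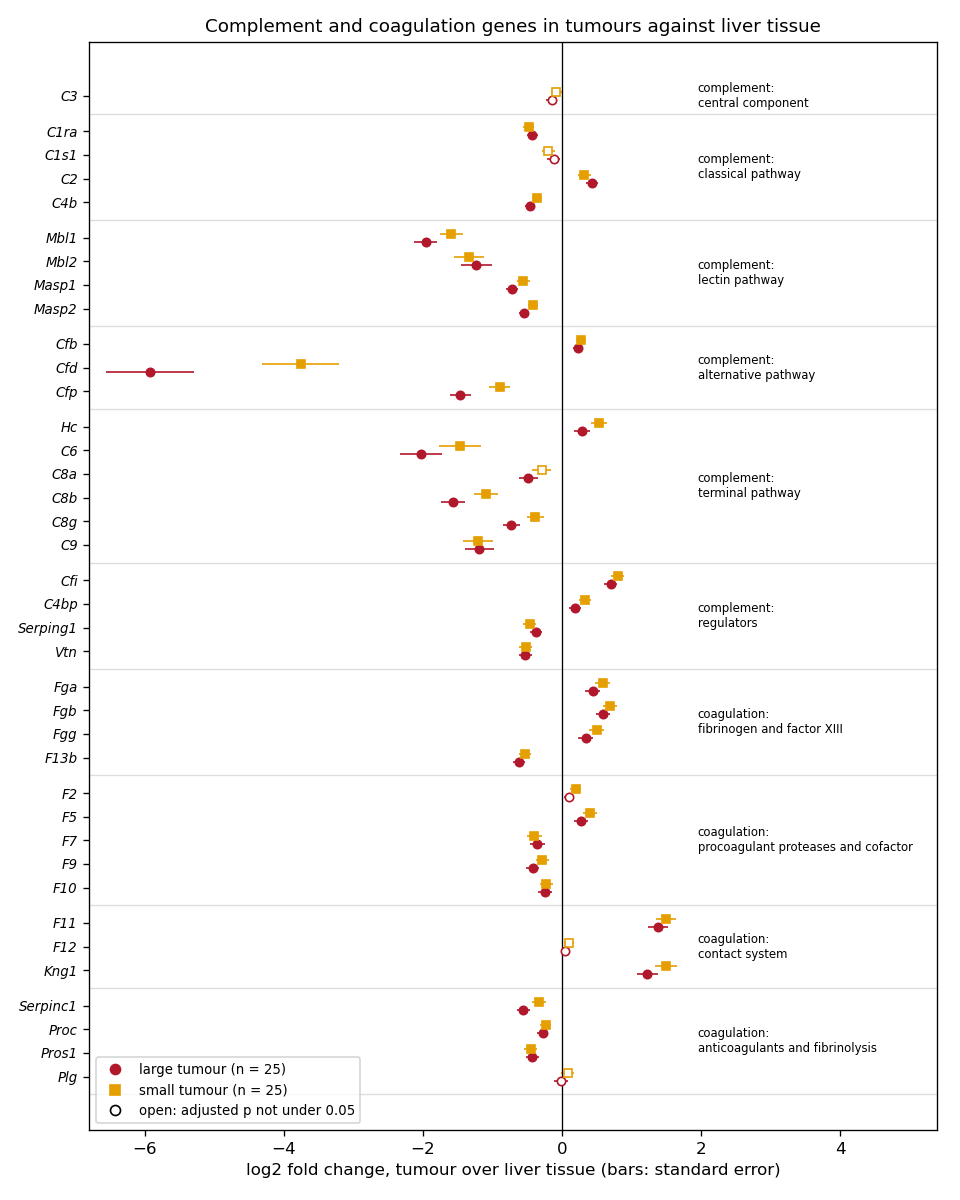
Log2 fold change of each of the 38 genes in large (circles, n = 25) and small (squares, n = 25) tumours over liver tissue (n = 15), with bars of 1 standard error, ordered by role. Filled symbols passed an adjusted p of 0.05. *Cfd* at -5.93 and -3.76 lies farthest to the left, and *F11* and *Kng1* farthest to the right.

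Most changes were small. A fitted change of at least 2-fold was reached in large tumours by 2 genes that rose, *F11* and *Kng1*, and by 7 that fell, *Mbl1*, *Mbl2*, *Cfd*, *Cfp*, *C6*, *C8b* and *C9*. Over all genes tested 10.5% rose and 7.25% fell that far. In small tumours the 2-fold limit was reached by 2 rising and 6 falling genes, with 8.98% and 5.4% of all genes. The ranges of large tumours and liver tissue did not overlap for 5 of the 38 genes, *Mbl1*, *Cfd*, *Cfp*, *C8b* and *C9*, and those of small tumours and liver tissue overlapped for every gene. Overlap was not counted over all genes tested, so these counts cannot be read as a trait of the 38 genes.

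Counted together, the 38 genes took up 4.97% ± 0.454 of gene counts in liver tissue (SD, n = 15), 5.34% ± 0.621 in small tumours and 5.30% ± 0.636 in large tumours (n = 25 each). The complement share was 2.34% ± 0.213 in liver tissue, 1.96% ± 0.166 in small and 1.97% ± 0.164 in large tumours. No tumour library of either size, 0 of 25 and 0 of 25, reached above the liver tissue median of that share. These shares are of raw counts without TMM factors, so they also depend on the counts of all other genes, such as *Alb*. After TMM scaling the summed complement level had medians of 23540 CPM in liver tissue, 20810 in small and 19420 in large tumours. On that scale small tumours reached up to 23470 CPM and large ones up to 23810, above the liver tissue median. The coagulation share moved the other way, from 2.63% ± 0.273 to 3.38% ± 0.54 and 3.33% ± 0.62, and 24 of 25 small and 23 of 25 large tumour libraries lay above the liver tissue median. The share of all 38 genes thus combined a lower complement and a higher coagulation share. Not all coagulation genes took part in this. The summed median of the fibrinogen genes and *F13b* went from 13620 CPM in liver tissue to 19670 in small and 17500 in large tumours. For the contact system it went from 2828 to 7535 and 6434. The procoagulant factors went from 3382 to 3893 and 3716, and the inhibitors with *Plg* from 5319 to 5130 and 4235.

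**Figure D2:**
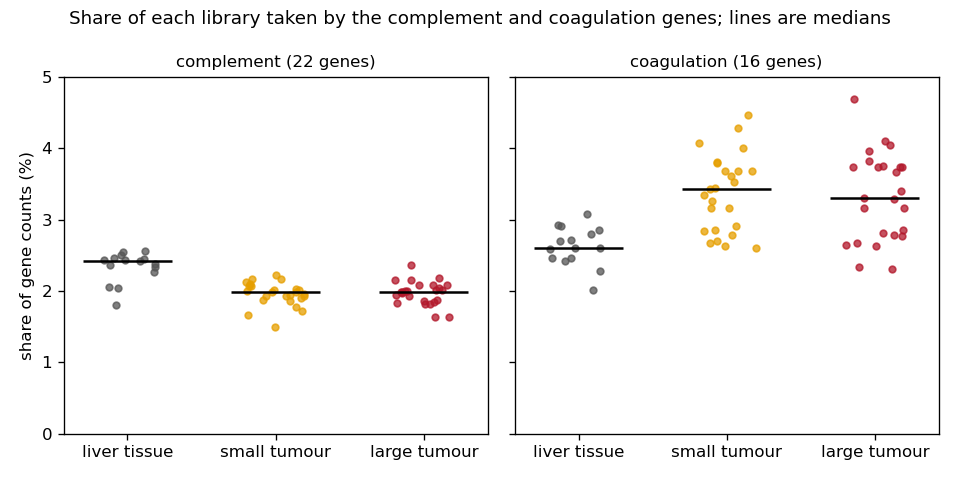
Share of each library's gene counts, in percent, taken by the 22 complement genes (left) and the 16 coagulation genes (right), with 1 point per library and lines at the medians. Complement shares of tumours lie below the liver tissue median of 2.42%, and most coagulation shares of tumours lie above the liver tissue median of 2.61%.

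Per kilobase of exon, the order of mean levels in liver tissue began with *C3* at 2125 ± 420 CPM per kb, *Fga* at 1776 ± 369, *Fgg* at 1719 ± 332, *Vtn* at 1265 ± 171 and *Fgb* at 1176 ± 186 (SD, n = 15). The gaps between *C3*, *Fga* and *Fgg* were smaller than these SDs, as was that between *Vtn* and *Fgb*. *Masp1* stood last at 9.63 ± 0.695. In small tumours *Fga* led at 2483 ± 617, followed by *Fgg* at 2258 ± 538, *Kng1* at 2025 ± 675 and *C3* at 1991 ± 304, and neighbours in this order again differed by less than their SDs. *Kng1* thus went from the sixth to the third place of this scale, and *Cfd* from place 33 of 38 to the last. In these genes tumours also differed more among themselves than liver tissue libraries did. The highest level of a gene was a median of 1.7 times its lowest in liver tissue, 2.48 times in small tumours and 2.79 times in large tumours, over the genes with no library at 0. These ratios rest on 15 liver tissue libraries and 25 of each tumour size, and a range tends to widen with more libraries. The SD of log2 levels was larger than in liver tissue for 34 of 38 genes in small and for 34 in large tumours. The spread of all genes tested was not computed, so it is not shown to be particular to these 38. *C6* varied most among the genes with no library at 0, 16.2-fold over small and 24.2-fold over large tumours.

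*C3*, the protein on which the pathways converge, ranged from 6777 to 14580 CPM in liver tissue (median 10840), from 6700 to 12550 in small tumours (median 10660) and from 6668 to 12790 in large tumours (median 10090). The groups overlapped almost fully, and *C3* stood at -0.14 ± 0.078 in large (adjusted p = 0.0912) and -0.09 ± 0.0787 in small tumours (adjusted p = 0.343). The value in large tumours passed with library size alone as the scale (-0.16, adjusted p = 0.0183) and without run T1 (-0.23, adjusted p = 0.0229). Under the same settings the value in small tumours passed too (-0.19, adjusted p = 0.0071, and -0.29, adjusted p = 0.00842), whereas it was above 0 without run T2 (0.03, adjusted p = 0.79). The bases just upstream of *C3* (RefSeq, GRCm38.p6, chr17:57228137-57228386, minus strand) are shown because *C3* was the most abundant gene per length in liver tissue and is followed in neutrophils below. Capitals mark a match to the C/EBP-like pattern TTNNGNAAT, the kind of site bound by C/EBP factors of the liver's acute phase response.
C3: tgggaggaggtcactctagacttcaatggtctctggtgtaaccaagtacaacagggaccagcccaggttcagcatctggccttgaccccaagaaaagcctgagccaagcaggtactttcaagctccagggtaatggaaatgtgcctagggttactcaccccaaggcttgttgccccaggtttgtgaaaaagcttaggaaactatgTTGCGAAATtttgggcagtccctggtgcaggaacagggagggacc

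Among the classical pathway genes, which start the cascade from bound antibody, *C2* rose and *C1ra* and *C4b* fell. *C4b*, a subunit of the classical C3 convertase, ranged from 917.8 to 1625 CPM in liver tissue (median 1508), from 733.7 to 1320 in small (median 1111) and from 648.4 to 1413 in large tumours (median 1013). Every tumour library lay below the liver tissue median. The fold changes were -0.46 ± 0.0721 in large (adjusted p = 7.26e-08) and -0.36 ± 0.0726 in small tumours (adjusted p = 1.33e-05). *C2*, which supplies the protease of the same convertase, had medians of 71.0 CPM (55.7 to 90.9) in liver tissue, 93.0 (53.7 to 184.3) in small and 95.4 (71.7 to 193.8) in large tumours. It rose by 0.43 ± 0.0877 in large tumours, all 25 of which lay above the liver tissue median, and by 0.32 ± 0.088 in small ones. *C1ra* fell by 0.43 ± 0.0793 and 0.48 ± 0.0793, and its partner protease *C1s1* had -0.12 ± 0.0925 and -0.19 ± 0.0926 (adjusted p = 0.24 and 0.0592). The value of *C1s1* in small tumours passed under 5 of 10 alternatives, among them DESeq2 (-0.21, adjusted p = 0.046) and library size alone (-0.28, adjusted p = 0.0101). *C1ra*, *C1s1* and *C4b* have close copies in the mouse genome (*C1rb*, *C1s2*, *C4a*), and reads that match more than 1 place are not counted, so their levels are uncertain. *C4a* fell from a mean of 25.8 to 7.23 CPM in large tumours (-1.88 ± 0.163). *C2* also shares its strand with the read-through model *Gm20547*, which spans *Cfb* as well.

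The lectin pathway fell as a whole, 4 of 4 genes in large and 4 of 4 in small tumours. *Mbl1*, a mannose-binding lectin that recognises microbial sugars, ranged from 151.8 to 275.6 CPM in liver tissue (median 186.3), from 33.9 to 180.4 in small (median 57.9) and from 25.0 to 114 in large tumours (median 44.7). Large tumours and liver tissue did not overlap, and in small tumours the highest library reached into the liver range but not to its median. *Mbl1* fell by 1.96 ± 0.164 in large (adjusted p = 3.12e-16) and by 1.59 ± 0.163 in small tumours (adjusted p = 6.83e-13). The other lectin gene, *Mbl2*, went from 470–706.2 CPM (median 597.9) to 62.5–582.6 (median 213.8) in small and 58.3–498.5 (median 244) in large tumours, all below the liver tissue median. It fell by 1.23 ± 0.22 and 1.34 ± 0.217 in large and small tumours. The lectin-associated proteases moved less, *Masp1* by -0.72 ± 0.0917 and -0.56 ± 0.0927 and *Masp2* by -0.55 ± 0.0761 and -0.42 ± 0.0767 in large and small tumours. *Masp2* overlaps *Tardbp* and *Masp1* overlaps *Rtp4* on the opposite strand, and the strand setting used for counting was not given in the sources used here.

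In the alternative pathway, which amplifies C3 cleavage, *Cfd* showed the widest change of the 38 genes. *Cfd* encodes factor D, or adipsin, the protease that activates factor B and a typical product of fat cells. It ranged from 9.88 to 172.1 CPM in liver tissue (median 30.4), from 0 to 23.8 in small tumours (median 1.05) and from 0 to 6.04 in large tumours (median 0.07). No large tumour overlapped with liver tissue, and liver tissue itself varied 17.4-fold. In counts, *Cfd* had 136 to 2856 in liver tissue, while 9 large tumours and 1 small tumour had none. Pooled over libraries, the share of *Cfd* was 70.5-fold lower in large tumours than in liver tissue (95% interval 62.5 to 79.9) and 16.0-fold lower in small ones (15.1 to 17.0), by counting error alone. Large tumour replicate 20 held 131 of the 269 counts of its group, and without it the large tumour ratio was 130.0 (110.0 to 155.0). The fitted changes were -5.93 ± 0.631 (adjusted p = 1.46e-12) and -3.76 ± 0.554 (adjusted p = 2.56e-08). Their size depended on the runs, with -4.77 in large tumours without run T2 and -7.25 without run T3, and -4.59 in small tumours without run T1 and -3.17 without run T3, all of which passed.

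*Cfp*, the gene of properdin, which stabilises the alternative C3 convertase and is made by leukocytes, ranged from 44.8 to 81.4 CPM in liver tissue (median 64.99), from 17.8 to 49.2 in small (median 39.6) and from 9.67 to 40.2 in large tumours (median 25.1). Large tumours did not overlap with liver tissue, and small tumours did so only at their top. *Cfp* fell by 1.46 ± 0.149 in large (adjusted p = 3.27e-13) and by 0.90 ± 0.15 in small tumours (adjusted p = 4.68e-07). *Cfb*, which supplies the protease of the alternative convertase, went the other way, with 0.23 ± 0.0731 in large (adjusted p = 0.00447) and 0.27 ± 0.0734 in small tumours (adjusted p = 0.00104). Its rise no longer passed without run T1 (0.20, adjusted p = 0.0692, in large and 0.22, adjusted p = 0.0721, in small tumours).

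The terminal pathway builds the membrane attack complex from C5 to C9. *Hc*, the mouse gene of C5, rose while its partners fell or did not pass. *Hc* had medians of 1123 CPM (845.9 to 1361) in liver tissue, 1631 (1112 to 2377) in small and 1320 (783.2 to 2189) in large tumours. It rose by 0.53 ± 0.111 in small tumours (adjusted p = 2.98e-05), 24 of 25 of which lay above the liver tissue median. In large tumours, 17 of 25 lay above that median, and *Hc* rose by 0.29 ± 0.109 (adjusted p = 0.0162), a call lost under 4 of 10 alternatives, among them those without run T1 (0.19, adjusted p = 0.209) and without run T3 (0.24, adjusted p = 0.107). *Hc* overlaps *Gm13449* on the opposite strand.

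The other 5 terminal genes fell in large tumours and 4 of them in small ones. *C6*, which binds C5b to begin the complex, ranged from 133 to 238.6 CPM in liver tissue (median 183.5), from 12.0 to 194.4 in small (median 66.1) and from 6.17 to 149 in large tumours (median 33.5). Tumours of both sizes reached from within the liver tissue range to far below it. *C6* fell by 2.03 ± 0.303 in large (adjusted p = 2.72e-08) and by 1.47 ± 0.302 in small tumours (adjusted p = 2.26e-05). *C8b*, one of 3 chains of C8, had medians of 184.5 CPM (137.2 to 229.8), 77.1 (33.7 to 212.8) and 56.7 (24.9 to 114.2) in liver tissue, small and large tumours. *C9*, which polymerises into the pore, had medians of 430.1 (328.9 to 664), 169.9 (51.8 to 538.9) and 188.1 (40.7 to 326.9). For both, every large tumour lay below every liver tissue library. The fold changes in large and small tumours were -1.57 ± 0.172 and -1.10 ± 0.172 for *C8b* and -1.19 ± 0.215 and -1.21 ± 0.218 for *C9*. The remaining C8 chains changed less, *C8g* by -0.73 ± 0.124 and -0.38 ± 0.125 and *C8a* by -0.49 ± 0.136 and -0.29 ± 0.137 (adjusted p = 0.00131 and 0.0595). In large tumours the C8 chains ranged from 1.4-fold lower for *C8a* to 2.98-fold lower for *C8b*, a difference between genes that was not tested.

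The regulators split evenly, with 2 that rose and 2 that fell in both tumour sizes. *Cfi*, the protease that inactivates C3b and C4b, ranged from 610 to 1067 CPM in liver tissue (median 772.8), from 659.6 to 1734 in small (median 1392) and from 856.2 to 1873 in large tumours (median 1276). All 25 large and 24 of 25 small tumours lay above the liver tissue median. *Cfi* rose by 0.70 ± 0.0928 in large (adjusted p = 1.03e-09) and 0.80 ± 0.0935 in small tumours (adjusted p = 4.2e-11). *C4bp*, a cofactor of that protease, rose by 0.19 ± 0.0841 (adjusted p = 0.0395) and 0.33 ± 0.0849 (adjusted p = 0.000557). Its call in large tumours was lost under 8 of 10 alternatives, among them DESeq2 (0.17, adjusted p = 0.0822). *Serping1*, the C1 inhibitor, fell by 0.37 ± 0.0898 and 0.47 ± 0.0905, and *Vtn*, the plasma protein vitronectin that binds terminal complexes, by 0.53 ± 0.0944 and 0.52 ± 0.0951 in large and small tumours.

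All 3 fibrinogen chains rose in both tumour sizes. *Fga* ranged from 3410 to 7582 CPM in liver tissue (median 5163), from 4497 to 11140 in small (median 7581) and from 4245 to 12800 in large tumours (median 6585). *Fgb* had medians of 4552 (2956 to 5717), 6959 (4445 to 9926) and 6385 (3716 to 10780) CPM, and *Fgg* of 3648 (2451 to 4941), 4679 (2829 to 6986) and 4050 (2532 to 8308). The groups overlapped for each chain, with 16 to 22 of 25 large and 20 to 24 of 25 small tumours above the liver tissue median. In large tumours the chains rose by 0.44 ± 0.107, 0.59 ± 0.1 and 0.34 ± 0.105 in the order *Fga*, *Fgb* and *Fgg* (adjusted p = 0.000229, 4.78e-07 and 0.00347). In small tumours they rose by 0.59 ± 0.108, 0.69 ± 0.101 and 0.50 ± 0.106. The rise of *Fgg* in large tumours did not pass without run T2 (0.18, adjusted p = 0.247). *F13b*, the carrier subunit of the factor that cross-links fibrin, fell by 0.62 ± 0.0838 and 0.53 ± 0.0844.

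The fibrinogen genes are neighbours on chromosome 3 (GRCm38), *Fgg* at chr3:83007724-83015049, *Fga* at chr3:83026076-83033627 and, on the minus strand, *Fgb* at chr3:83040141-83049863. Their upstream bases are printed because the 3 genes moved together. Capitals mark matches to TTCNNNGAA, the palindrome bound by STAT factors, and to CTGGGAA, the motif known as the acute phase element of fibrinogen genes, each searched on both strands. The regions are chr3:83025903-83026075 (plus strand) for *Fga*, chr3:83049864-83050113 (minus strand) for *Fgb* and chr3:83007474-83007723 (plus strand) for *Fgg*, from RefSeq on GRCm38.p6.
Fga: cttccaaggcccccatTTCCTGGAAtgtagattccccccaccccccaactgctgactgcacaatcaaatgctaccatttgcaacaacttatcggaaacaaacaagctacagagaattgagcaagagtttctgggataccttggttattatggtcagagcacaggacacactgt
Fgb: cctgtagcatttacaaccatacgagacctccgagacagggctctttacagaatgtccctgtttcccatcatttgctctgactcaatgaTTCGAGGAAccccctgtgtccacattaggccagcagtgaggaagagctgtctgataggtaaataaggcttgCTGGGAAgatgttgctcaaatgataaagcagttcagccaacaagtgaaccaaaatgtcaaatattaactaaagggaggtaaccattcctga
Fgg: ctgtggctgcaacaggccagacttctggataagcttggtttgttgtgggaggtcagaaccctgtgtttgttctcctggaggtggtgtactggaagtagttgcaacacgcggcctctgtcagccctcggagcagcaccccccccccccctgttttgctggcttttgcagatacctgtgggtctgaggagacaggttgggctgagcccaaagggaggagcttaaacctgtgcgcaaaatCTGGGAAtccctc

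Promoters of 250 bases before to 50 after the start were listed for 29 of the 38 genes and not for *C2*, *C4b*, *Cfb*, *Cfi*, *Kng1*, *Masp1*, *Serping1*, *Plg* and *Proc*. The palindrome TTCNNNGAA was in 8 of the 29 (27.6%) and in 8.3% of all 32851 listed promoters. CTGGGAA was in 7 (24.1%, against 11.1%), and the C/EBP-like pattern TTNNGNAAT in 9 (31.0%, against 11.5%). Matches to the palindrome and to CTGGGAA overlap in *F9*, *Masp2* and *Vtn*. A consensus site of the liver factor HNF1 was in *Hc* alone, 3.45% of the 29 against 0.0609% of all promoters, and the HNF4 pattern CAAAGTCCA in none, against 0.475%. A member counted when any of its listed promoters matched, whereas the share of all was taken per promoter. A gene with more than 1 listed promoter, such as *C1s1*, has more chances to match. The paired shares are thus in unlike units and cannot be compared directly. All were searched on both strands, and these matches describe letters only.

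Among the other procoagulant factors, the cofactor gene *F5* rose by 0.27 ± 0.0941 in large and 0.40 ± 0.0949 in small tumours. The call in large tumours was lost without run T1 (0.23, adjusted p = 0.0987) and without run T3 (0.26, adjusted p = 0.0516). *F2*, the gene of prothrombin, stood at 0.10 ± 0.0737 in large tumours (adjusted p = 0.211) and rose by 0.20 ± 0.074 in small ones (adjusted p = 0.0172), a call lost under 5 of 10 alternatives, at the farthest without run T1 (0.07, adjusted p = 0.544). *F7*, *F9* and *F10*, proteases that lead up to thrombin, fell in both. In large tumours they changed by -0.35 ± 0.106, -0.42 ± 0.0913 and -0.24 ± 0.0941, and in small ones by -0.40 ± 0.107, -0.28 ± 0.0922 and -0.23 ± 0.0938. The falls of *F7* and *F10* did not pass without a run term or without run T2, in either tumour size, and that of *F9* in small tumours not without run T2 (-0.20, adjusted p = 0.124).

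The contact system, which starts coagulation at surfaces, held the largest rises. *F11*, the gene of the protease factor XI, ranged from 51.3 to 90.6 CPM in liver tissue (median 60.8), from 84.5 to 320.4 in small (median 174.6) and from 78.1 to 300.6 in large tumours (median 159). All 25 large and all 25 small tumours lay above the liver tissue median, and the ranges touched only at the edges. *F11* rose by 1.39 ± 0.143 in large (adjusted p = 5.19e-13) and 1.5 ± 0.143 in small tumours (adjusted p = 6.67e-14). *Kng1*, the gene of kininogen, a cofactor and the source of bradykinin, went from 1794–3427 CPM (median 2244) to 2718–11440 (median 6785) in small and 2709–9756 (median 5742) in large tumours. It rose by 1.23 ± 0.152 in large (adjusted p = 1.8e-10) and 1.5 ± 0.155 in small tumours (adjusted p = 9.88e-13), again with all tumours above the liver tissue median. Its close copy *Kng2*, with which reads may be confused, rose by 1.06 ± 0.0992 and 1.11 ± 0.0997. *F12*, which starts the contact pathway, had 0.05 ± 0.0667 and 0.10 ± 0.0673 (adjusted p = 0.537 and 0.173).

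The 3 inhibitors among the 16 coagulation genes fell in both tumour sizes, where 32.1% of all genes fell in large and 31.0% in small tumours. *Serpinc1*, the gene of antithrombin, fell by 0.56 ± 0.0963 in large tumours (adjusted p = 7.84e-07) and 0.33 ± 0.0969 in small ones (adjusted p = 0.00212). *Proc*, the gene of protein C, fell by 0.28 ± 0.0793 and 0.23 ± 0.0797, and *Pros1*, the gene of its cofactor protein S, by 0.43 ± 0.0946 and 0.45 ± 0.0945. *Plg*, the precursor of the clot-dissolving protease plasmin, stood at -0.02 ± 0.0972 and 0.08 ± 0.0981 (adjusted p = 0.894 and 0.476). The call for *Proc* was lost without run T2 in both tumour sizes.

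**Figure D3:**
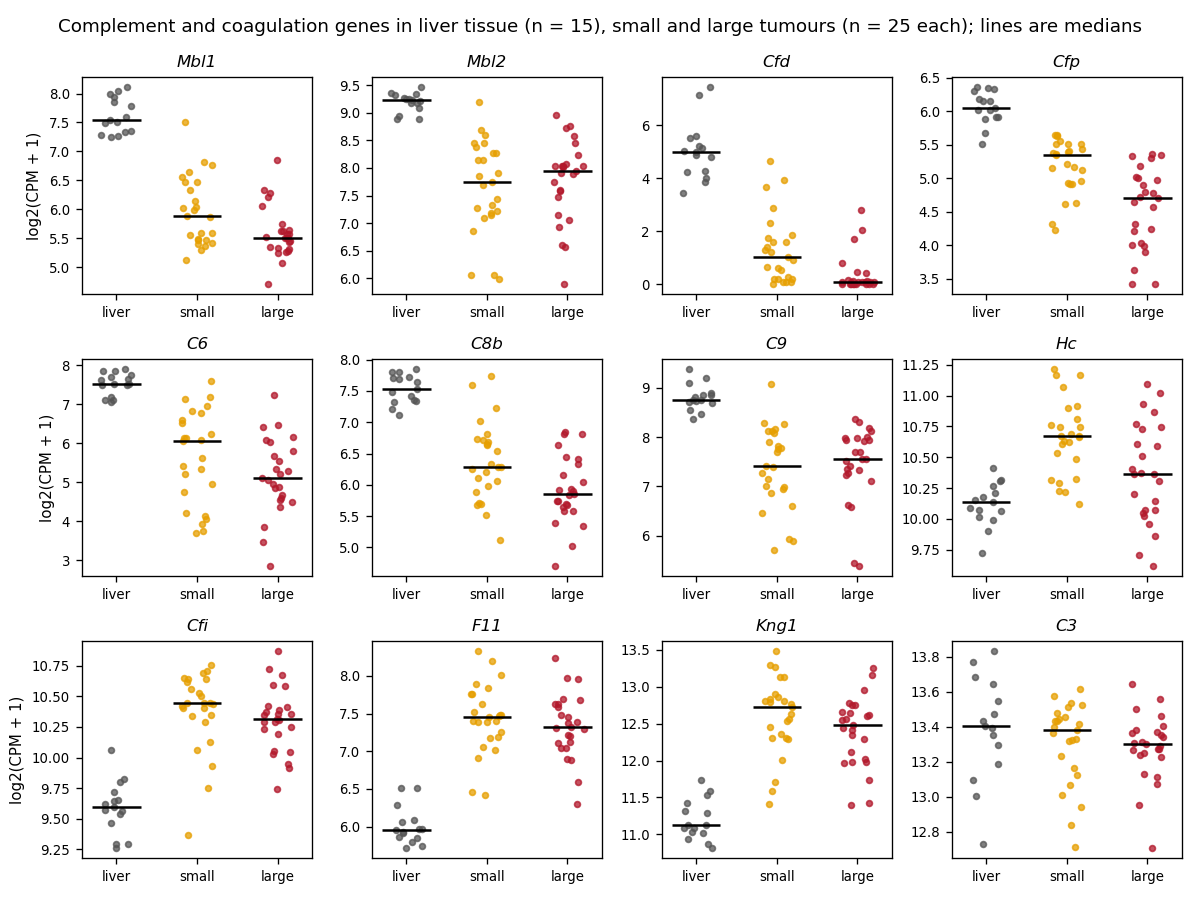
Level of 12 genes in each liver tissue (n = 15), small tumour and large tumour (n = 25 each) library as log2(CPM + 1), with lines at the medians and a separate vertical scale for each gene. *Mbl1*, *Cfd*, *Cfp*, *C8b* and *C9* of large tumours lie wholly below liver tissue, *F11* and *Kng1* of tumours lie mostly above it, and the 3 groups overlap for *C3*.

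Between large and small tumours few of these genes differed. None of the 38 rose and 2 fell, *Cfd* and *Cfp*, where 0.929% of the 14538 tested genes rose and 1.55% fell. At 2-fold 0 of the 38 genes rose and 1 fell, *Cfd*, beside 0.0619% and 0.564% of all genes. The median was -0.10, against 0.01 over all genes, with library size alone in place of TMM scaling giving 939 genes that rose and 180 that fell over all genes instead of 135 and 225. *Cfp* stood at -0.56 ± 0.133 (adjusted p = 0.0149), with 2 of 25 large tumours above the small tumour median, and *Cfd* at -2.17 ± 0.619 (adjusted p = 0.042), with 3 of 25. The ranges overlapped for both. Within the 3 tissue runs the log2 ratio of means was -0.41, -0.56 and -0.66 for *Cfp*, and -3.3, -4.98 and 0.25 for *Cfd*, which was not lower in large tumours of run T3. *Cfp* no longer passed without any of the runs (adjusted p = 0.0812, 0.0786 and 0.142 without T1, T2 and T3), and *Cfd* passed without T3 but not without T1 (-1.63, adjusted p = 0.327) or T2 (-1.23, adjusted p = 0.444). By DESeq2 4 genes fell, these and *C8b* and *C8g*, which stood at -0.48 ± 0.155 and -0.35 ± 0.111 by edgeR (adjusted p = 0.0741 and 0.0694).

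The comparisons with liver tissue were also read within runs, which held 6, 6 and 3 liver tissue, 10, 5 and 10 small and 5, 10 and 10 large tumour libraries. All 11 genes that rose in large tumours and 21 of the 22 that fell had the same direction in each run. The exception was *F10*, at 0.06 in run T3. In small tumours all 12 and all 21 kept their direction. Without run T1, 7 in place of 11 genes rose in large tumours.

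Markers of other cells moved beside these genes. All 12 Kupffer cell and macrophage markers fell in large and in small tumours. Over all genes tested, 38.5% rose and 32.1% fell in large tumours and 34.7% and 31.0% in small ones. The summed level of these 12 markers had a median of 1452 CPM (1039 to 1901) in liver tissue, 821.9 (375.1 to 1232) in small and 553.6 (255.3 to 1109) in large tumours. Of 11 hepatocyte markers 6 rose and 3 fell in large tumours and 6 rose and 2 fell in small ones, and their sum had medians of 94330 CPM (68760 to 148100), 234000 (129800 to 293700) and 216400 (141700 to 273300). Much of this sum was *Alb*, with medians of 53130, 164000 and 150300 CPM. *Cfp* and the macrophage markers fell side by side, in large against small tumours too, where 7 of the 12 markers and 1.55% of all genes fell. Markers of other leukocytes did not all move this way. In large tumours 7 of 8 T cell, 3 of 6 monocyte and 1 of 5 B cell markers rose, while 4 B cell and 1 of 6 neutrophil markers fell. In small tumours 1 monocyte marker rose, and 5 of 6 neutrophil and 3 of 5 B cell markers fell. Between tumour sizes no marker of these other leukocytes passed. The part of cell composition in the changes of the 38 genes was not tested.

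The other genes of both systems were taken from lists of 33 complement and 30 coagulation genes. Of 28 tested complement genes 4 rose and 17 fell in large tumours, with a median of -0.56, and 3 rose and 15 fell in small ones, with -0.45. Over all genes tested 38.5% rose and 32.1% fell in large tumours, with a median of 0.05. In small tumours 34.7% rose and 31.0% fell, with a median of 0.03. The largest falls in large tumours were those of *Fcna* (-2.54 ± 0.236), a soluble lectin of macrophages, the macrophage complement receptor *Vsig4* (-2.13 ± 0.248), *C4a* and *Colec10* (-1.63 ± 0.213), a collectin that feeds the lectin pathway. *Clu*, which encodes clusterin, an inhibitor of the terminal complex, rose by 1.13 ± 0.128, the leukocyte receptor genes *Cr2* and *Itgax* by 1.02 ± 0.453 and 1.00 ± 0.228, and *Cr1l*, a regulator of C3 convertases, by 0.21 ± 0.0474. Of 26 tested coagulation and fibrinolysis genes 12 rose and 6 fell in large and 13 rose and 5 fell in small tumours. Their medians were 0.23 and 0.36, to be read beside the same shares and medians of all genes. Among those that rose most in large tumours were the protease receptor *F2rl1* (3.77 ± 0.388), the plasminogen activator *Plat* (3.28 ± 0.39) and the general protease inhibitor *A2m* (2.13 ± 0.492). *Vkorc1* (-0.56 ± 0.0684), which recycles vitamin K, *Fgl1* (-0.55 ± 0.121), *Vwf* (-0.53 ± 0.189) and *Tfpi2* (-0.51 ± 0.112) fell. Between tumour sizes *Plat* alone of these coagulation genes passed, higher in large tumours (1.08 ± 0.28), and *Vsig4*, *Fcna*, *Colec10* and *Cd55* of the complement list were lower.

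In blood neutrophils *C3*, *Cfp* and *F5* were the genes with a median over 10 CPM in every group, and *C4b* reached that level with the combination. *C3*, *C4b* and *Cfp* were compared between liver and blood cells of the same animals. The fits used 6 untreated, 5 aPD1, 10 CXCR2i and 8 combination animals. The sum of 10 neutrophil markers had medians of 20800, 11300, 37100 and 51200 CPM in untreated, aPD1, CXCR2i and combination liver cells. In blood these medians were 32300, 38400, 33100 and 35700. By these medians the sum was lower in liver than in blood in untreated and aPD1 mice and higher in the other groups. The lowest sums were those of liver aPD1 replicate 4 at 1020, liver untreated replicate 2 at 2870 and liver aPD1 replicate 2 at 5670. The part of neutrophil content in the liver against blood differences below was not tested. In all, 6 libraries were shallow or held T cell transcripts, in that their gene counts were below 1000000 or their *Cd3e* level, a T cell marker, exceeded 20 CPM. They were blood untreated replicate 1, liver untreated replicates 2 and 5, liver combination replicate 2 and liver aPD1 replicates 2 and 4.

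*C3* was higher in liver than in blood neutrophils in each of the treated groups. Untreated liver cells ranged from 354 to 1570 CPM (median 851) and blood cells from 193 to 639 (median 436). The ranges overlapped, the liver library was higher in 4 of 6 animals, and the difference did not pass (1.07 ± 0.418, adjusted p = 0.0857), where 14.2% of 8911 genes rose and 7.74% fell. It passed without the 6 shallow or T cell-bearing libraries (1.48, adjusted p = 0.000539), without the animal term (1.12, adjusted p = 0.0247) and by DESeq2 (1.05, adjusted p = 0.0227). With aPD1, *C3* was at 759, 1080, 962, 862 and 781 CPM in liver and 400, 561, 446, 481 and 561 in blood, with no overlap. It rose by 0.93 ± 0.262 (adjusted p = 0.0319, 5 of 5 animals), beside 25.7% of 10428 genes, and did not pass without any of replicates 1 to 4 (adjusted p = 0.0533 to 0.116). With CXCR2i it went from 367–697 CPM (median 446) in blood to 527–1810 (median 1170) in liver, a rise of 1.30 ± 0.14 (adjusted p = 2.39e-06, 10 of 10 animals) beside 25.3% of 8896 genes. With the combination it went from 247–668 (median 518) to 598–1840 (median 1250), a rise of 1.40 ± 0.144 (adjusted p = 1.87e-06, 8 of 8 animals) beside 23.0% of 9427 genes. Liver and blood overlapped only at the edges in these last groups.

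*C4b* differed between liver and blood in untreated mice and far less in mice given CXCR2i. Untreated liver neutrophils had 3.69, 71.0, 11.2, 2.84, 5.8 and 12.5 CPM, and untreated blood neutrophils 1.31, 0.159, 0.142, 0.173, 0, 0.165 and 1.43. The groups did not overlap, although 6 of the 7 blood libraries held at most 1 count of *C4b* and the last held 14. *C4b* rose in liver by 5.26 ± 0.791 (adjusted p = 0.000704, 6 of 6 animals), and counts pooled over the 6 liver and 7 blood libraries gave a 43.0-fold higher share in liver (95% interval 27.2 to 72.0, counting error alone). Liver replicate 2, which bore T cell transcripts, held 334 of the 458 liver counts, and without it the ratio was 14.9 (9.17 to 25.6). Without the shallow or T cell-bearing libraries the fitted rise was 4.36 (adjusted p = 0.000896). With aPD1 the liver values were 6.27, 50.3, 3.0, 85.9 and 20.1 CPM and the blood values 0, 3.88, 1.15, 0.955 and 6.7, in the same order of animals. The ranges overlapped, but each animal was higher in liver. The rise was 3.59 ± 0.928 (adjusted p = 0.0258, 5 of 5 animals), and it no longer passed without replicate 1 or 2 (adjusted p = 0.0754 and 0.0897) or without the shallow or T cell-bearing libraries (2.32, adjusted p = 0.0906). With CXCR2i liver and blood ranged from 3.71 to 15.9 and from 3.89 to 15.7 CPM (medians 9.43 and 8.28), and with the combination from 2.75 to 24.6 and from 3.15 to 37.4 (medians 13.7 and 11.6). These ranges coincided, and the fold changes were 0.11 ± 0.308 (adjusted p = 0.8) and 0.49 ± 0.337 (adjusted p = 0.252).

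The difference between liver and blood was itself tested between treatments, in a joint fit with the animal as a term. For *C4b* the difference was lower than in untreated mice, at -5.02 ± 0.9 with CXCR2i (adjusted p = 0.0193) and -4.66 ± 0.926 with the combination (adjusted p = 0.00654). Over the 12831 genes tested, 0.101% and 0.74% had a lower difference in these contrasts, and 0.46% and 1.69% a higher one. With aPD1 *C4b* stood at -1.56 ± 1.07 (adjusted p = 0.771). No gene passed in that contrast (0.0%). The corresponding values of *C3* were 0.33 ± 0.361 with CXCR2i, 0.40 ± 0.376 with the combination and -0.04 ± 0.416 with aPD1, and those of *Cfp* were 0.54 ± 0.216, 0.78 ± 0.226 and 0.30 ± 0.251, none of which passed (adjusted p = 0.057 for *Cfp* with the combination). All untreated animals were of run set A, against 1 of 10 with CXCR2i and 5 of 8 with the combination. Treatment and run set thus cannot be fully told apart in this fit. It was made in 1 setting only, with the shallow or T cell-bearing libraries kept.

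*C4b* rose in blood neutrophils with CXCR2i and with the combination, and passed in no comparison of liver neutrophils. Blood neutrophils had 0 to 14 counts of *C4b* per untreated library, 20 to 104 with CXCR2i and 14 to 238 with the combination, and in CPM neither treated group overlapped with untreated cells. *C4b* rose by 4.53 ± 0.881 with CXCR2i (adjusted p = 0.0035) and by 4.93 ± 0.72 with the combination (adjusted p = 6.31e-05), where 3.05% and 6.57% of 10217 genes rose and 3.85% and 8.38% fell. Of the 38 genes *F10*, the gene of factor X, also rose in blood, by 2.14 ± 0.663 with CXCR2i (adjusted p = 0.0467) and 2.28 ± 0.524 with the combination (adjusted p = 0.00337), with ranges that overlapped untreated cells. Pooled counts of *C4b* gave shares 22.4-fold (95% interval 14.2 to 37.6) and 31.4-fold (20.0 to 52.4) above untreated blood. Without untreated replicate 7, which held 14 of the 19 untreated counts, these ratios were 67.2 (28.6 to 208) and 94.0 (40.1 to 290). All untreated libraries came from run set A. Within run set A, the combination stood at 5.02 (adjusted p = 0.00268, 6 libraries) and CXCR2i at 3.56 (adjusted p = 0.0885, 1 library), and without libraries labelled Vehicle or isotype CXCR2i stood at 3.91 (adjusted p = 0.0668). In blood with aPD1, which shares no run set with untreated cells, *C4b* had 2.73 ± 1.01 (adjusted p = 0.555). CXCR2i and the combination were not compared directly, and in liver *C4b* had -0.21 ± 0.99, -1.54 ± 0.936 and -0.74 ± 0.699 with aPD1, CXCR2i and the combination (adjusted p = 0.964, 0.505 and 0.526).

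*Cfp* was lower in liver than in blood neutrophils of untreated mice. Untreated liver cells ranged from 34.0 to 90.0 CPM (median 58.0) and blood cells from 88.2 to 114 (median 97.8). The liver library was lower in each of the 6 animals, and *Cfp* fell by 0.66 ± 0.206 (adjusted p = 0.0394), a call lost without the shallow or T cell-bearing libraries (-0.60, adjusted p = 0.113). With aPD1, *Cfp* was at 53.8, 57.2, 78.1, 72.2 and 123 CPM in liver and 92.4, 102, 107, 96.8 and 135 in blood, lower in liver in all 5 animals. The difference was -0.45 ± 0.16 (adjusted p = 0.0579), and 15.6% of genes fell. With CXCR2i the medians were 73.0 (47.4 to 105) in liver and 88.6 (61.4 to 120) in blood, and with the combination 85.4 (51.9 to 106) and 93.2 (58.5 to 98.3). The differences were -0.21 ± 0.107 (adjusted p = 0.112) and 0.05 ± 0.13 (adjusted p = 0.782), beside 24.2% and 23.0% of genes that fell.

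**Figure D4:**
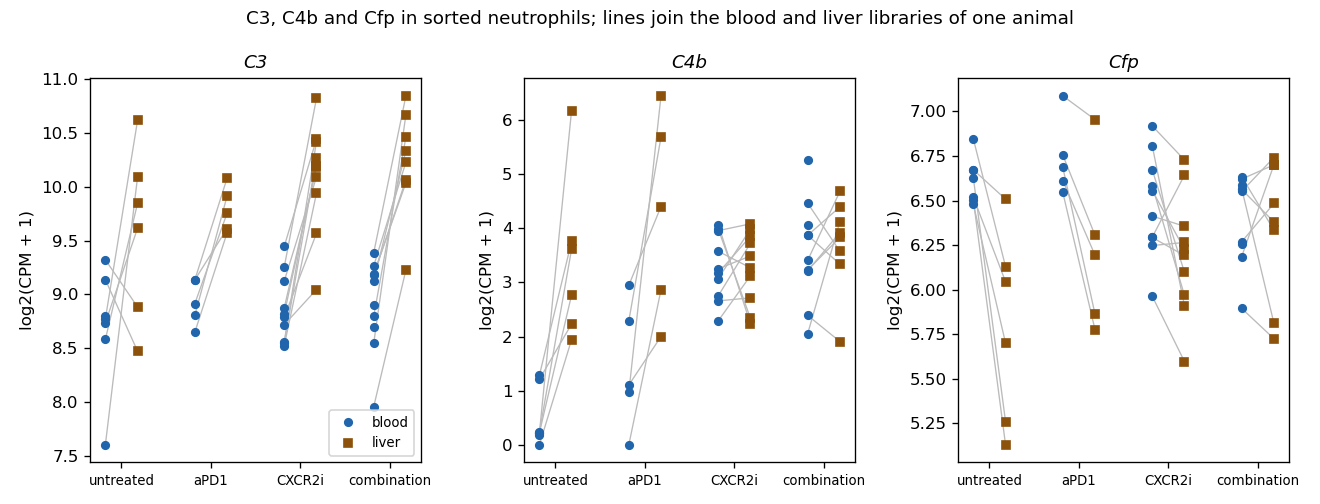
Level of *C3*, *C4b* and *Cfp* as log2(CPM + 1) in sorted neutrophils of untreated, aPD1, CXCR2i and combination mice, with 1 point per blood (circle) or liver (square) library and lines that join libraries of the same animal. In blood, *C4b* of untreated mice lies between 0 and 1.43 CPM and that of the CXCR2i and combination groups between 3.15 and 37.4 CPM.

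*C3* and *Cfp* passed in no comparison of a treatment with untreated cells, at either site. In liver neutrophils *C3* stood at -0.31 ± 0.502, 0.12 ± 0.452 and 0.49 ± 0.343 with aPD1, CXCR2i and the combination, and *Cfp* at 0.07 ± 0.373, 0.22 ± 0.334 and 0.49 ± 0.259. In blood *C3* stood at -0.28 ± 0.281, -0.14 ± 0.244 and -0.0025 ± 0.183, and *Cfp* at -0.11 ± 0.186, -0.19 ± 0.162 and -0.27 ± 0.121. Over all 11945 genes tested in liver, 0.109% rose and 0.0335% fell with CXCR2i, and 5.66% rose and 5.12% fell with the combination. With aPD1 no gene passed by edgeR (0.0%), with 676 genes in liver and 779 in blood at an unadjusted p under 0.05, whereas DESeq2 called 4 and 267.

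Transcripts of liver cells were present in the liver neutrophil libraries. The sum of hepatocyte markers had medians of 387, 149, 72.5 and 125 CPM in untreated, aPD1, CXCR2i and combination liver cells and 5.44, 3.45, 7.73 and 8.31 CPM in blood cells. Monocyte markers summed to medians of 2820, 1480, 1860 and 1320 CPM in liver and 97.2, 72.3, 53.3 and 71.2 in blood. Kupffer cell and macrophage markers summed to 464, 1320, 422 and 711 in liver and 414, 451, 447 and 396 in blood. Within that list *C1qa* had means of 24.4, 148.7, 21.6 and 65.4 CPM in liver. In blood of the same animals its means were 0, 0.134, 0.0177 and 0.0158 CPM. Of the 3, 9, 4 and 5 macrophage markers tested, 1, 8, 2 and 3 rose in liver and 0, 0, 1 and 0 fell. Endothelial markers summed to 144, 213, 57.7 and 57.7 CPM in liver and 13.3, 11.7, 12.9 and 12.6 in blood. *C3* was 2.1 times as high as *Fga*, a gene of hepatocytes, in liver tissue and 30.3, 71.2, 430 and 220 times as high in the liver neutrophil groups, by median CPM without regard to length. *C4b* was at 0.292 of the level of *Fga* in liver tissue and at 0.302 in untreated liver neutrophils, and at 1.66, 3.47 and 2.42 in the treated groups. The part of other cells in the liver values of *C4b*, *C3* and *Cfp* was not tested. In blood, summed hepatocyte markers reached at most 19.1 CPM, except for 1 CXCR2i library at 82, and *Fga* had a median of 0 CPM in untreated, CXCR2i and combination cells, where *C4b* had medians of 0.165, 8.28 and 11.6.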

How the data were processed

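RNA was sequenced from whole liver tissue, tumours and sorted cells, and 65 tissue and 61 neutrophil libraries of the 199 in the table were used. Raw counts of reads per gene were deposited, made per the submitters' processing notes with FastQC 0.11.8, Trim Galore 0.6.4, HISAT2 2.1.0 and HTSeq 0.11.2 on GRCm38; options and strand were not stated there. The 5 HTSeq summary rows name no gene and were left out; alignments that were not unique had a median share of 14.8% (1.77% to 60.7%) and reads without a feature 20.4%. Gene counts per library had medians of 15178619 (tissue) and 5690277 (neutrophils). Intervals of pooled counts are exact at 95% and cover counting error only.

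Counts were tested with edgeR 4.0.16 in R 4.3.3 (quasi-likelihood, TMM factors, filterByExpr with a minimum count of 10 and total of 15, threshold 0.05 after Benjamini-Hochberg adjustment over all genes tested). Tissue groups shared a fit with the sequencing run as a term. Liver and blood neutrophils were paired by the animal code in the labels, and treatments were fitted with the run set as a term. DESeq2 1.42.0 and other scalings, filters, terms and left-out runs or libraries were tried. On simulated data with 200 changed genes the large tumour comparison recovered 70.8%, 95.5% and 100.0% of genes changed by a log2 value of 0.5, 1 and 2, with 10 false calls. The liver against blood comparison with CXCR2i recovered 18.5%, 75.8% and 98.4%, with 6. Far more genes passed in the data, 5591 rising and 4662 falling in large tumours, so these rates cannot be carried over to it. No 2 replicates agreed within sampling noise (lowest chi-square per degree of freedom 2.78). Members and lists were chosen with earlier results of these data known. The text names all 38 members and, of other genes, those with the largest changes in each list, apart from an item that is not reported here.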

Additional observations from a re-analysis of the deposited data

Results flagged for a closer look

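In a check of 24 sets of 5 to 10 neutrophil libraries for 1 library apart from the rest, *C3* in blood replicate 1 of untreated mice was singled out, at 193.0 CPM with the next library at 382.0. The gap was 0.57 of the range. Chance singles out about 1 in 20 such sets. That library held 950488 gene counts.

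The liver against blood difference of *C4b* differed from that in untreated mice by -5.02 with CXCR2i and by -4.66 with the combination, by a test of the difference itself. That test did not fully separate treatment from run set. *Cfd* and *Cfp* differed between tumour sizes, by -2.17 and -0.56 in large against small tumours. *C3* was also present in blood T cells, which enter no comparison above, with a median of 6.25 CPM in aPD1 mice (4.81 to 12.3) and 1.26 CPM (0.215 to 4.03) in mice without DEN ALIOS given PBS. Among the other blood T cells its median was 0.751 CPM in untreated, 5.97 in CXCR2i and 9.27 in combination DEN ALIOS mice and 2.6 in CXCR2i mice without DEN ALIOS. In liver T cells the medians were 8.1, 78.7, 14.2 and 37.6 CPM in untreated, aPD1, CXCR2i and combination DEN ALIOS mice and 41.2 and 15.0 in PBS and CXCR2i mice without DEN ALIOS. These groups were not tested against each other.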

How the results depend on the processing

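Of the 22 genes that fell in large tumours 19 kept their call under every alternative run, and of the 11 that rose 6 did. In small tumours it was 16 of 21 and 9 of 12. None of these genes changed direction. At least 2-fold changes were reached by 2 rising and 7 falling genes in large tumours and by 2 and 6 in small ones, and 7 genes rose in large tumours without run T1. Between tumour sizes, 4 genes fell by DESeq2, 1 without a filter, without run T3, without libraries over 10 CPM of *S100a8* or at 2-fold, and 0 without run T1 or T2. With library size alone as the scale, 3745 genes rose and 5459 fell in small tumours in place of 5050 and 4508.

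Directions changed only for values that had not passed. *Plg* in large tumours was at 0.0154 without a run term, 0.0315 without run T2 and 0.0107 with a replicate block, and in small tumours at -0.0275 with library size alone and -0.104 without run T1. *F12* was at -0.0493 without run T1 and -0.00938 without the *S100a8* libraries in large tumours, and at -0.00206 with library size alone and -0.0534 without run T1 in small ones. *C3* in small tumours was at 0.0324 without run T2. *Cfp* in liver against blood with the combination was at -0.065 without a filter and -0.0449 in the joint paired fit, an alternative chosen after seeing the data. In liver with aPD1, *C4b* was at 0.733 without a run set term, 0.569 with a replicate block, and 0.0581 and 0.061 without replicates 1 and 3 (range -0.803 to 0.061 as each was left out), *C3* at 0.162 without Vehicle or isotype libraries and *Cfp* at -0.177 without replicate 5 (range to 0.264). In liver with CXCR2i, *C3* was at -0.0016 with the block and -0.115 without the shallow or T cell-bearing libraries, and with the combination *C4b* was at 0.277 without the latter. In blood with aPD1, *C3* was at 0.141 without a run set term and 0.145 with the block, and *Cfp* at 0.112 without the term. *C3* in blood was at 0.112 and 0.185 under these settings with CXCR2i. With the combination it was at 0.159 and 0.0938, and at 0.0162 with RLE factors, 0.0161 by DESeq2, 0.00378 within run set A and 0.0111 without Vehicle or isotype libraries. The causes were not tested.

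In untreated liver against blood 2 of *C3*, *C4b* and *Cfp* rose by DESeq2, without the replicate block of the animal, without the shallow or T cell-bearing libraries and in the joint fit, and 0 fell without those libraries. With aPD1, 1 fell with RLE factors, by DESeq2 and in the joint fit, 1 rose without a filter or without those libraries, and 0 to 2 rose as each replicate was left out. In blood with CXCR2i 0 rose within run set A or without Vehicle or isotype libraries. Title numbers did not pair tissue or treatment groups, and the replicate block there left *C4b* in blood at 4.28 with CXCR2i and 4.75 with the combination. A fit of aPD1 within a run set could not be made. The ratios of pooled *Cfd* and *C4b* counts without 1 library were chosen after seeing the data. Low counts limit *Cfd* in large tumours and *C4b* in untreated blood.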

Other observations

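*F5*, the cofactor of factor X, was at medians of 110 to 172 CPM in blood neutrophils. Between liver and blood it stood at -0.29 in untreated mice (edgeR adjusted p = 0.545), fell by 1.12 ± 0.25 with aPD1 (adjusted p = 0.0185), and rose by 0.73 ± 0.19 with CXCR2i and 0.59 ± 0.17 with the combination (adjusted p = 0.00622 and 0.00822). *F10*, the gene of factor X, rose in liver in all 4 groups, by 5.75, 4.92, 3.23 and 3.05 in untreated, aPD1, CXCR2i and combination mice. Its medians were 43.9, 62.1, 41.9 and 32.6 CPM in liver and 1.32, 1.31, 4.84 and 3.95 in blood, beside the monocyte markers that were also higher in liver. The part of other cells in this was not tested. *C5ar2*, a receptor of the C5a fragment, fell in liver in all 4 groups, by 1.39, 1.84, 1.12 and 1.47 (edgeR adjusted p = 0.00444, 0.0209, 4.98e-06 and 5.05e-07). Over all genes 7.74%, 15.6%, 24.2% and 23.0% fell. The receptor genes *C5ar1* and *C3ar1* did not follow it. *C5ar1* stood at -0.18, -0.87 and -0.06 in untreated, aPD1 and combination mice, none of which passed, and rose by 0.38 with CXCR2i (edgeR adjusted p = 0.0487). *C3ar1* was tested with aPD1 only, where it rose by 6.72 ± 1.11 (edgeR adjusted p = 0.00925).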
